A study of Drosophila melanogaster with 2 samples.

Results

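Head-to-head promoters are stretches of DNA from which neighbouring genes are transcribed in opposite directions. In the p53 chromatin immunoprecipitation (ChIP-seq) data analysed here, 502 of the 2290 final peaks lay at such promoters. A peak was counted where its summit was within 500 bp of annotated transcription start sites (TSSs) of protein-coding genes on both strands, using every annotated transcript. The whole pooled list holds 26752 regions, and 24040 of them overlap no final peak. Of these 24040, 1064 lay at head-to-head promoters, and these 1064 serve as the comparison regions. The final list also holds 892 peaks near TSSs on one strand alone and 896 away from promoters. The samples form 1 group of 2 biological replicates, numbered 2 and 3. Both are whole embryos of mixed sex, aged 0 to 24 h, of the strain p53-MiMIC-GFP, in which an eGFP exon placed in an intron makes a p53-GFP fusion from the endogenous gene. The precipitation used an anti-GFP antibody, one label field names the target as p53, and chromatin was sheared by sonication to 200 to 800 bp. Whole embryos mix many cell types, so a peak carried by few cells and a weak peak carried by many cannot be told apart. There is no untagged, irradiated or p53-mutant group, and the 1 control library behind both replicates was not analysed here.

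In Drosophila, closely spaced genes that are transcribed apart are common, and many encode proteins that every cell uses, such as ribosomal proteins, enzymes of mitochondria and parts of the transcription machinery. Promoters of such genes are known to carry words bound by DREF, a factor tied to growth and DNA replication genes, by M1BP, a zinc finger protein of paused promoters, and a core promoter word called motif 7. BEAF-32 is an insulator protein known for sitting between close head-to-head genes. p53 is a tetrameric transcription factor that drives cell death and repair genes after DNA damage, and its full site is a pair of short decamers.

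The DNA between the TSSs is shown for the strongest peaks with a stretch of 20 to 300 bp free of annotated exons, and for the strongest with a DREF or M1BP word in that stretch, since the results turn on these intervals. Each sequence is the plus strand of Release 6 (dm6), from the RefSeq genome sequence, and runs from the base after the TSS of the gene named first, on the minus strand, to the base before the TSS of the gene named second, on the plus strand. Capitals mark the words of DREF (TATCGATA), M1BP (GGTCACAC) and motif 7 (CATCNCTA) on either strand.
Art3/mRpS10: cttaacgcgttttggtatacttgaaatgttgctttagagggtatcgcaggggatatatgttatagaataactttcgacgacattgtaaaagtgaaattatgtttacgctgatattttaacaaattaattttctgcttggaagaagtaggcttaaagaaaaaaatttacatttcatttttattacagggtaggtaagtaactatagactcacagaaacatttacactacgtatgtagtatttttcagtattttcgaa
Atat/Shc: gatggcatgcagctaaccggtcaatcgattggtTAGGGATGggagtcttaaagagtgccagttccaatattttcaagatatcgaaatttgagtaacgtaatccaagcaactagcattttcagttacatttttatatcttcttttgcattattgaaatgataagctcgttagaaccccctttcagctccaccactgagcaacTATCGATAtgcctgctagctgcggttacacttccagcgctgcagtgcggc
CG8372/CG8360: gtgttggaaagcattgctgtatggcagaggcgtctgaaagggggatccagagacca
Ripalpha/RpL7: cccactccgcggccaGTGTGACCgtttgg
RpS25/CG4820: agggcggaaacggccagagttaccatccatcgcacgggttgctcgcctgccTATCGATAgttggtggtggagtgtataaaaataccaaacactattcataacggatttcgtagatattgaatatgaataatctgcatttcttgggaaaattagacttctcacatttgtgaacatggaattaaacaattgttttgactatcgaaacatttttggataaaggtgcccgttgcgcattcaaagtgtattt
Vha55/Snx3: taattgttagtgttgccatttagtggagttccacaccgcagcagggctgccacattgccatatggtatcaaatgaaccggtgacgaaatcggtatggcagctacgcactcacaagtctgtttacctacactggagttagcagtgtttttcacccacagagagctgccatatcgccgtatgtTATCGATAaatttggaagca
fs(1)h/mys: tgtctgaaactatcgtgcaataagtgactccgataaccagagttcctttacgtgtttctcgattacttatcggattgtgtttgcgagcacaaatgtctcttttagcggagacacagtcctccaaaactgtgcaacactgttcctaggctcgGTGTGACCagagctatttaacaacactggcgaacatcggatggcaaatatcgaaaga

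Intervals on arm 2R were left out of this choice, so stronger peaks with such intervals may lie there. The first 4 printed belong to strong peaks of the class. The Art3/mRpS10 interval (chr3R:15229409-15229664, 256 bp) held none of the marked words. The Atat/Shc interval (chr3L:9426759-9427009, 251 bp) held a motif 7 word near its minus-strand end and a DREF word near its plus-strand end. The CG8372/CG8360 and Ripalpha/RpL7 intervals were short, at 56 bp (chr2L:8212903-8212958) and 29 bp (chr2L:10200975-10201003), and the second carried an M1BP word. Both of these summits lay outside the printed DNA, 68 bp past the CG8360 TSS and 35 bp past the RpL7 TSS. The remaining intervals carried the DREF word at RpS25/CG4820 (chr3R:11216288-11216534) and Vha55/Snx3 (chr3R:12627830-12628030), and the M1BP word at fs(1)h/mys (chrX:8061437-8061644). The Vha55/Snx3 DREF word and the Atat/Shc motif 7 word did not lie within 100 bp of the summit, the window of later counts. RpS25 is a ribosomal protein gene, Vha55 encodes a subunit of the vacuolar proton pump, fs(1)h encodes a bromodomain protein and mys an integrin subunit. GC content ranged widely, with 30.1% in the Art3/mRpS10 interval and 69.0% in the Ripalpha/RpL7 interval.

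The first question was how much of the peak list lay at head-to-head promoters. They held 21.9% of final summits (95% Wilson interval 20.3 to 23.7) and 4.43% of the summits of the 24040 pooled regions with no final peak (4.17 to 4.69). The difference was 17.5 percentage points (95% Newcombe interval 15.8 to 19.3). In its own list, replicate 2 had 451 of its 2290 strongest regions at head-to-head promoters (19.7%), against 3.29% of its other regions. Replicate 3 had 513 of 2290 (22.4%), against 4.35% of its other regions, so the difference was present in each replicate. One-strand promoters also held more of the final summits (39.0%, against 21.0% of those 24040), so the share was taken again among promoter peaks alone. Of the final peaks at promoters 36.0% (502 of 1394) were head-to-head, against 17.4% of pooled regions at promoters with no final peak, a difference of 18.6 points (15.9 to 21.3). Read from the regions, 595 of 1659 pooled regions at head-to-head promoters (35.9%) were in or overlapped the final list, where 17.4% of those at one-strand promoters, 5.55% of those away from promoters and 10.1% of all pooled regions were. The final list is the 2290 strongest pooled regions, so this sets strong regions against weaker ones, and 16.7% of the comparison regions of the class had a deposited q of 0.01 or less. Against only the 2290 strongest pooled regions without a final peak, the difference was 6.99 points (4.75 to 9.22). Intervals throughout cover counting error only, since the number of reads is unknown and neighbouring regions are not independent.

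The same question was asked from the genes, which does not use weak regions. Of 13945 protein-coding genes, 5141 (36.9%) had an opposite-strand neighbour with a TSS within 1000 bp, forming 2720 pairs. A final summit lay within 500 bp of both genes for 540 of these pairs (19.9%, 18.4 to 21.4), while 648 of the 8804 genes with no such partner had a summit within 500 bp (7.36%, 6.83 to 7.92). The difference was 12.5 points (10.9 to 14.1), and 16.9 points (14.2 to 19.7) among pairs and genes that had any pooled region within 500 bp. It was 6.66 points with the upper part of the final list alone, which holds fewer peaks, and 20.5 points when a summit near either gene of a pair counted. A pair has more TSSs than a gene, so the shares are not of equal targets. The 502 peaks touched 1014 genes.

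**Figure D1:**
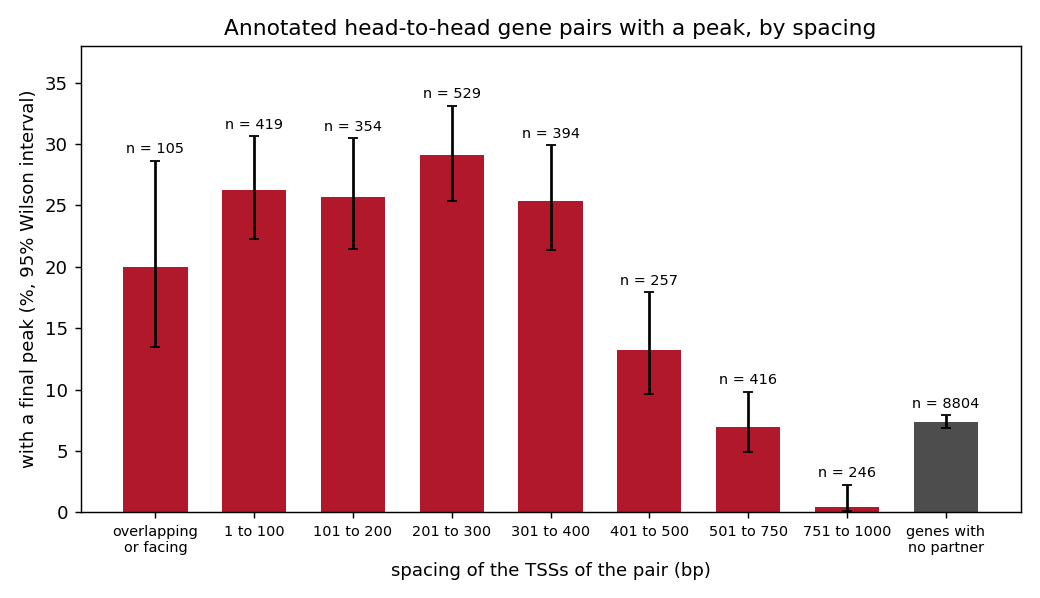
Share of annotated head-to-head gene pairs with a final summit within 500 bp of a TSS of both genes (y axis, percent, bars with 95% Wilson intervals) by the spacing of the TSSs in bp (x axis), with genes that have no partner in grey; n is the number of pairs or genes. The bars from 1 to 400 bp stand between 25.4% and 29.1%, and those beyond 400 bp are lower.

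The share varied with spacing. Pairs whose TSSs were 1 to 100 bp apart had a peak in 26.3% of cases (110 of 419), and those 201 to 300 bp apart in 29.1% (154 of 529), with intervals that overlap. The share was 13.2% (34 of 257) at 401 to 500 bp and 0.407% (1 of 246) at 751 to 1000 bp. The stretch within 500 bp of both TSSs shrinks as pairs move apart, so wide pairs offer less room for such a summit. When a summit near either gene was counted, every spacing class held between 21.8% and 32.1%. Of the 105 pairs with overlapping or facing TSSs, 21 had a peak, with a wide interval on the share of 13.5% to 28.6%.

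The strongest peak of the class lay at imd/Dp1 on arm 2R, between an adaptor gene of the immune deficiency pathway and a gene for a KH-domain RNA-binding protein. Its pooled signal value, the authors' measure of peak strength, was 664, with 230.3 in replicate 2 and 441 in replicate 3. The next, Art3/mRpS10 (chr3R:15229384-15229685), stands between a gene of the arginine methyltransferase family and a mitochondrial ribosomal protein gene. It had 599 in the pool, 247 in replicate 2 and 350.1 in replicate 3. Chro/Ssl1 (593 in the pool, 276 in replicate 2 and 319 in replicate 3) joins the gene of the chromodomain protein Chromator to that of a TFIIH subunit. Every one of these values was higher in replicate 3, as were the replicate medians of the class, so signal values are set side by side within a list only.

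mRpS23/CenG1A, a second mitochondrial ribosomal protein promoter, had 568 in the pool, with 232 and 331 in replicates 2 and 3. Atat/Shc joins the genes of an alpha-tubulin acetyltransferase and of a receptor tyrosine kinase adaptor. It had 546 in the pool, with 239 and 305 in replicates 2 and 3. CG8372/CG8360, a pair of genes known here only by their symbols, had 492 in the pool, with 199.4 and 286 in replicates 2 and 3. Ripalpha/RpL7, which holds the promoter of a large-subunit ribosomal protein, had 489 in the pool, with 199.9 and 286 in replicates 2 and 3. All of these stood in the 50 strongest regions of both replicates' own lists. The other peaks among the 15 strongest had pooled values from 379 to 486. They lay at Pdrg1/Pal1, Pgk/Bacc, CG5757/CG5098, RpS27/Nup37, Tcs5/CHMP2B, Fbw5/CG9147, tank/CG12194 and Mkk4/SLIRP2. Pgk encodes phosphoglycerate kinase of glycolysis, Nup37 a nuclear pore protein, CHMP2B an ESCRT-III subunit and Mkk4 a kinase upstream of JNK. The Pgk/Bacc TSSs overlap by 268 bp, with each gene starting inside the other, and at the other 14 the TSSs point apart.

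**Figure D2:**
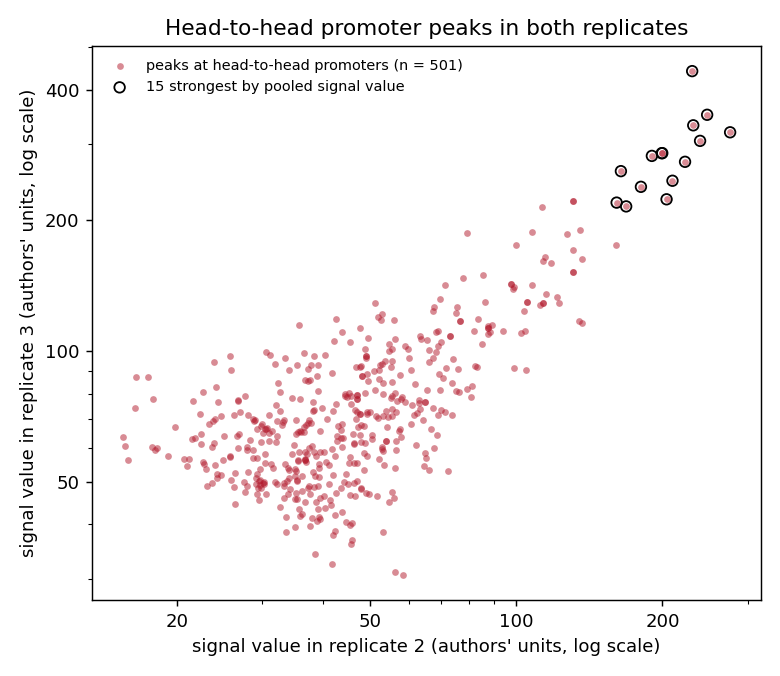
Signal value in replicate 2 (x axis) and replicate 3 (y axis), in the authors' units on log scales, for the 501 head-to-head promoter peaks found in both replicate lists; open circles are the 15 strongest by pooled signal. The 15 strongest lie at the upper right in both replicates, and the spread between replicates is wide among the weaker peaks.

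Across the 502 peaks the pooled signal value ran between 75.8 and 664, with a median of 110.1. The median was 109.9 in one-strand promoter peaks and 107.9 in final peaks away from promoters. The upper part of the final list by signal held 254 of the head-to-head peaks (50.6%) and 50.6% of the one-strand peaks, a difference of 0.04 points (−5.42 to 5.48). The interval covers differences of about 5 points either way. With TSSs required within 250 bp of the summit, the head-to-head share was higher by 6.87 points (0.55 to 13.1), a difference that passed. Of the 100 strongest final peaks, 18 were head-to-head, 34 one-strand and 48 away from promoters. These are 3.59% of the head-to-head peaks (2.28 to 5.60), 3.81% of the one-strand peaks (2.74 to 5.28) and 5.36% of those away from promoters (4.06 to 7.03), with intervals that overlap. Of the 25 strongest, 2 were head-to-head, 9 one-strand and 14 away from promoters. These are 0.398% of the head-to-head peaks (0.109 to 1.44), 1.01% of the one-strand peaks (0.532 to 1.91) and 1.56% of the rest (0.933 to 2.61). These intervals overlap too. The strongest one-strand peak reached 1970. The deposited −log10 q-value separated few members, because 445 of the 502 stood at its highest value in the list, 3.61.

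Support by the single replicates was like that of the final list as a whole. In replicate 2, whose class median was 44.7, 363 peaks (72.3%) had an overlapping region with a q of 0.01 or less, beside 72.9% of all final peaks. In replicate 3, with a class median of 69.2, it was 498 peaks (99.2%), beside 99.0% of all final peaks. Both replicates met that q at 359 peaks, replicate 3 alone at 139 and replicate 2 alone at 4. Among the 2290 strongest regions of its own list, replicate 2 had 397 of the 502 (79.1%, beside 81.5% of all final peaks) and replicate 3 had 447 (89.0%, beside 86.6%). Signal values in replicates 2 and 3 had a Spearman's rho of 0.585 over the 501 head-to-head peaks present in each replicate's list, and of 0.596 over 890 one-strand peaks. These are descriptions across peaks that share libraries, and the final list was chosen on the pooled replicates. The 1 peak that no replicate 2 region overlapped was Skp2/CG1103, which had a pooled value of 83.2.

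The next question was where the summits lay between the genes. At 495 of the 502 peaks the nearest TSSs pointed apart, and at 7 they overlapped or faced each other. The median spacing of TSSs pointing apart was 260 bp (quartiles 132.5 to 349) at the peaks and 263 bp (133 to 373) at the comparison regions, while that of replicate 2's strongest regions was 266 bp and that of replicate 3's 256.5 bp. The summit lay a median of 60 bp from the nearer TSS, against 65 bp in comparison regions, and 189 bp from the farther TSS, against 254 bp. It showed no side. The minus-strand TSS was nearer at 248 peaks and the plus-strand TSS at 251.

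The summit lay between the TSSs at 396 of the 495 peaks (80.0%, 76.3 to 83.3) and at 665 of 1021 comparison regions (65.1%, 62.2 to 68.0). The difference was 14.9 points (10.2 to 19.3), and was 16.4 points in replicate 2's list alone and 19.0 in replicate 3's. By spacing, the interval of the difference left out 0 where pairs were 101 to 200 bp apart (80.3% against 52.9%) and 201 to 300 bp apart (90.7% against 67.3%). At 1 to 100, 301 to 400 and 401 to 1000 bp, the interval of the difference included 0. The widest of these could hardly show a difference (91.8% against 91.6%). With both TSSs within 500 bp of the summit, a summit at TSSs more than 500 bp apart must lie between them. Against the strongest comparison regions alone, the difference over all spacings was 1.56 points (−3.98 to 7.31), so it did not pass against regions nearest in strength. The peak itself covered both TSSs in 245 cases (48.8%), against 35.4% of comparison regions.

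**Figure D3:**
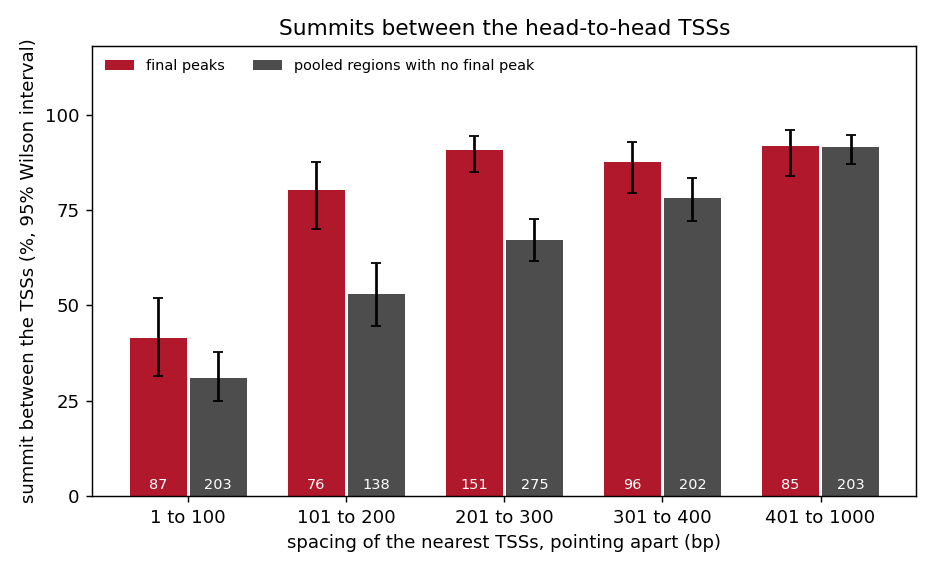
Share of summits that lie between the nearest TSSs (y axis, percent, bars with 95% Wilson intervals) by TSS spacing in bp (x axis), for final peaks at head-to-head promoters (red) and pooled regions of the same class with no final peak (grey); white numbers give the regions per bar. The bars differ most at 101 to 300 bp, at 80.3% against 52.9% and 90.7% against 67.3%.

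Sequence was described by 12 words, read on either strand in windows reaching 100 bp to each side of the summit. Against one-strand final peaks, the head-to-head peaks more often held DREF, motif 7, BEAF-32 and TATA box words, and less often the GAGA factor word. The DREF word was at 72 of 502 head-to-head summits (14.3%, 11.5 to 17.7) and at 7.62% of 892 one-strand summits, a difference of 6.72 points (3.32 to 10.4). Motif 7 was at 67 (13.3%) against 6.95%, a difference of 6.40 points (3.12 to 9.98). The BEAF-32 word (CGATA), which lies inside the DREF word, was at 52.4% against 38.9%, and counted outside DREF words it was at 46.8% against 36.7%, a difference of 10.2 points (4.77 to 15.5). The GAGA factor word (GAGAG), known from paused developmental promoters, was at 14.3% against 27.7%, a difference of −13.3 points (−17.5 to −8.97). TATAAA was at 26.7% against 21.4%, a difference of 5.28 points (0.65 to 10.1). The M1BP word was at 8.96% against 6.50%, with an interval of the difference that included 0 (−0.39 to 5.63). Median GC content in the windows was 39.3% at head-to-head peaks and 41.8% at one-strand peaks, and its part in these differences was not tested.

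Against comparison regions of their own class, the peaks differed in few words. Motif 7 was at 13.3% against 9.40% of the 1064 regions (difference 3.95 points, 0.65 to 7.58), and the E-box word CAGCTG at 14.9% against 19.1% (difference −4.14 points, −7.91 to −0.08). Neither passed in both replicates' own lists. The difference in motif 7 was 1.86 points (−1.40 to 5.50) in replicate 2's list alone, and that in the E-box word was −1.02 points (−4.91 to 3.16) in replicate 3's list alone and −2.70 points (−6.60 to 1.51) in replicate 2's. The intervals of the remaining 10 words included 0, though some passed in alternatives. The DREF difference of 2.59 points (−0.89 to 6.39) was 4.67 points (1.17 to 8.48) in replicate 3's list alone. In replicate 2's list alone it was 1.41 points (−2.24 to 5.40). The DREF word was at 14.3% against 11.7%, M1BP at 8.96% against 10.9%, GAGAG at 14.3% against 17.7% and BEAF-32 at 52.4% against 49.8%. At the midpoints of all 2615 annotated pairs that point apart, DREF was at 8.57%, M1BP at 5.43%, motif 7 at 5.35%, BEAF-32 at 41.1%, GAGAG at 14.4% and TATAAA at 39.9%.

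Within the class no difference in words by peak strength passed. Between the 251 stronger and the 251 weaker peaks, the interval of the difference included 0 for each of the 12 words, for example 13.1% of the stronger and 15.5% of the weaker peaks for DREF. These intervals were wide, at −8.57 to 3.79 points for DREF and −10.9 to 1.39 points for the GAGA factor word, so sizeable differences remain possible. The DREF word lay between the TSSs in 62 of 72 cases (86.1%) and the M1BP word in 32 of 45 (71.1%), while motif 7 did in 38 of 67 (56.7%). In comparison regions these shares were 79.7% for DREF, 52.6% for M1BP and 45.9% for motif 7. Words were sought near summits, which themselves lay mostly between the TSSs. At least 1 of the DREF, M1BP, motif 7 and E-box words was at 214 of the 502 peaks. None of the 12 was at 81 peaks, and neither count is set against other regions here. The strongest peaks showed the same mixture. Within 100 bp of the summit, imd/Dp1 held motif 7, Atat/Shc held DREF, Ripalpha/RpL7 held M1BP and the Myc/Max word CACGTG, and Pdrg1/Pal1 held none of the 12.

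**Figure D4:**
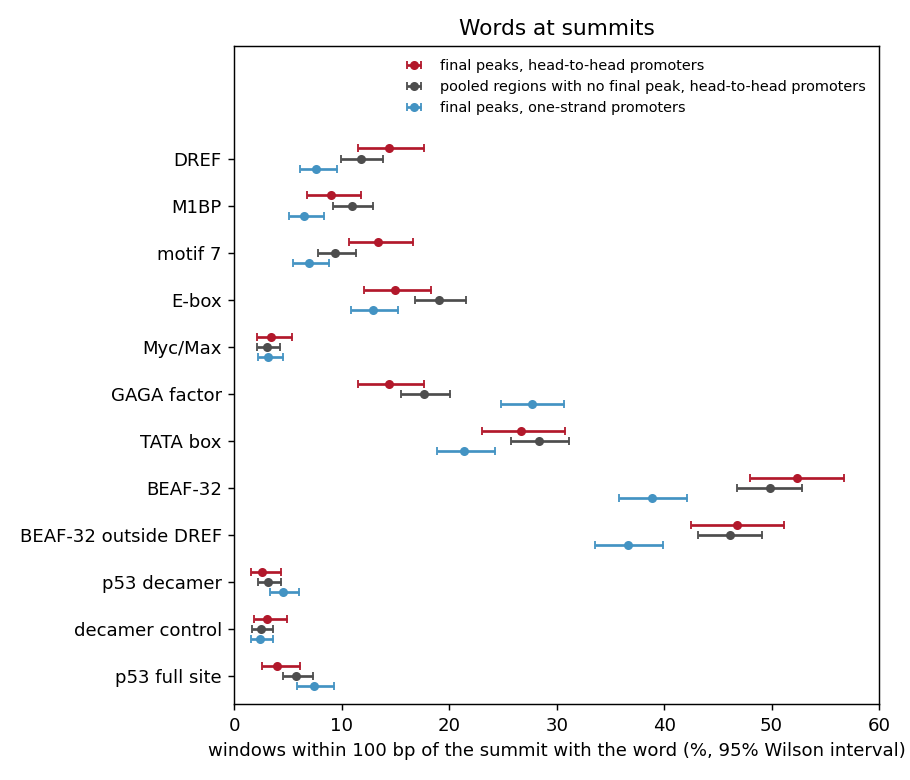
Share of windows within 100 bp of the summit that hold each word on either strand (x axis, percent, points with 95% Wilson intervals), for 502 final head-to-head peaks (red), 1064 pooled regions of the same class with no final peak (grey) and 892 one-strand final peaks (blue). Red lies right of blue for DREF, motif 7 and BEAF-32 and left of it for the GAGA factor word, at 14.3% against 27.7%.

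Words of p53 itself were at few of the head-to-head final peaks. The full p53 site, with at most 3 mismatches in 20 positions, was within 100 bp of 20 of the 502 summits (3.98%), against 7.40% of one-strand summits (difference −3.42 points, −5.77 to −0.82) and 5.73% of comparison regions (−1.75 points, −3.84 to 0.68). At the midpoints of the 2615 annotated pairs that point apart, the full site was at 6.69%. The decamer that makes up the site was at 2.59% of head-to-head summits, and its control with the ends exchanged at 2.99%. These were 4.48% and 2.35% at one-strand summits, and 3.10% and 2.44% in comparison regions. For the decamer, the intervals of both differences included 0. Of the 20 sites, 19 had 3 mismatches, the most allowed, and among these were the peaks at Chro/Ssl1, Pgk/Bacc and RpS27/Nup37. The 1 site closer to the full pattern lay at Ranbp21/Elys, where Elys encodes a nuclear pore protein. It is shown as the best match in the class, with its 1 mismatch in lower case (chrX:19652141-19652160, plus strand of dm6, RefSeq genome sequence).
Ranbp21/Elys: AAACTTGTTTAAGCATGTaT

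The Ranbp21/Elys peak had a pooled signal value of 95.3 and ranked 1483 in the final list, with 38.7 in replicate 2 and 57.4 in replicate 3. It thus stood below the median of the class in the pool and in both replicates. None of the peaks of the p53 gene lay at a head-to-head promoter.

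The kinds of genes at these peaks were described by lists. Of the 5141 genes with a head-to-head partner, 1014 (19.7%) had such a peak within 500 bp. Among cytosolic ribosomal protein genes it was 30 of 57 with a partner (52.6%). Peaks at these genes were not limited to head-to-head promoters, since 64 of all 94 ribosomal protein genes on the list (68.1%) had a final peak of any class within 500 bp, beside 13.3% of all protein-coding genes. The strongest were at RpL7, with 489 in the pool, RpS27 with 426 and RpL41 with 325. RpS27 had 164 and 259.7 in replicates 2 and 3, and RpL41 had 113 and 214. At 31 peaks a ribosomal protein gene was the nearest gene on one strand, and the summit lay nearer to its TSS at 27 of them and nearer to the partner's at 4. These partners differ in role. They include Nup37, Nelf-E, a subunit of the pausing factor NELF, eIF1, a translation initiation factor, and Dref, the gene of DREF. Dref/RpL13 had 145 in the pool, with 48.8 in replicate 2 and 101 in replicate 3, and no DREF word within 100 bp of its summit.

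Other lists of genes that every cell uses lay nearer to the level of all partnered genes. Mitochondrial ribosomal protein genes had a head-to-head peak at 11 of 59 (18.6%), led by mRpS10 and mRpS23 and then mRpL23 with 253. Proteasome subunit genes had one at 7 of 26 (26.9%), with Prosbeta1, a catalytic subunit, at 238 and Rpn5 and Rpn2, of the regulatory particle, at 144 and 108. Respiratory chain genes had one at 12 of 45 (26.7%), led by COX5A with 152, ND-MWFE with 146 and ND-51 with 144. Aminoacyl-tRNA synthetase genes had one at 8 of 23 (34.8%), led by ArgRS-m with 189.8, SerRS with 126 and GluProRS with 119. Translation factor genes had one at 8 of 31 (25.8%), led by eIF1 with 173, eIF3a with 166 and eIF3h with 136. The count of 8 includes Gcn5, a histone acetyltransferase gene that the list takes in by its symbol.

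Nuclear pore genes had such a peak at 6 of 21 (28.6%), led by Nup37 with 426, Nup98-96 with 233 and Nup160 with 141. General transcription and Mediator genes had one at 9 of 44 (20.5%), led by Polr2H with 201, MED30 with 193 and MED6 with 132, and splicing genes at 4 of 31 (12.9%), with SmD3 at 135, Sf3a1 at 113 and snRNP-U1-C at 99.8. Autophagy genes had one at 5 of 16 (31.2%), where Atg8a, the ubiquitin-like protein of the autophagosome, had 103, Atg2 had 86.9 and Atg3 had 82.3. DNA replication genes had one at 5 of 22 (22.7%), led by dup, the Cdt1 licensing factor, with 129, the ribonucleotide reductase subunit gene RnrS with 127 and PCNA2 with 97.7. Cell cycle genes had one at 3 of 16 (18.8%), at Dp, the partner of E2F, with 122, at Bub3 with 93.9 and at Cdk7 with 77.2. Lists this small give wide intervals, and no order among them is read.

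**Figure D5:**
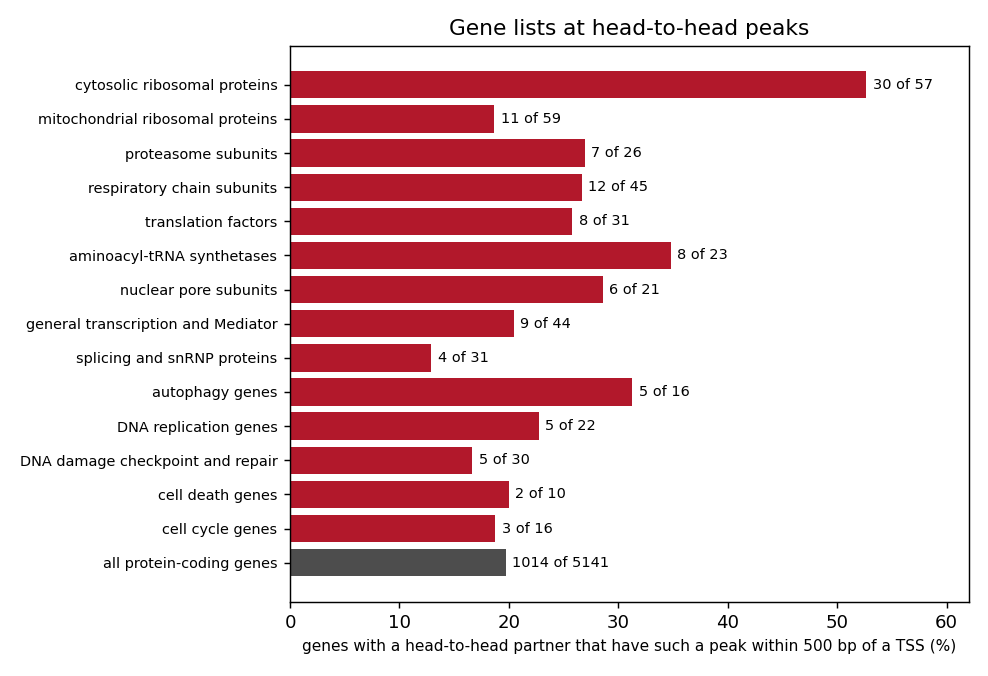
Share of genes with a head-to-head partner that have a head-to-head final peak within 500 bp of a TSS (x axis, percent), for 14 gene lists (red) and all protein-coding genes (grey), with the counts beside each bar. Cytosolic ribosomal protein genes stand at 52.6%, against 19.7% for all partnered genes, and the other lists lie between 12.9% and 34.8%.

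The DNA damage response is the textbook setting of p53. DNA damage checkpoint and repair genes had a head-to-head peak at 5 of 30 with a partner (16.7%), near the 19.7% of all partnered genes. The strongest was at Ercc1, a nuclease subunit of excision repair, with 158 in the pool, 76.3 in replicate 2 and 80.7 in replicate 3. It was followed by mus301, a helicase gene, with 138, and Brca2, of homologous recombination, with 108. Cell death genes had one at 2 of 10, also near that share, at Diap2, an inhibitor of apoptosis, with 131 in the pool, and at the caspase gene Dcp-1 with 103. Of the 10 radiation-response targets of p53 on the list, 4 (40%) had a final peak of any class within 500 bp of a TSS. Among all protein-coding genes 13.3% had one. Only 1 of the 10 has a head-to-head partner, and none had a peak of this class. Irbp18, the gene of a bZIP protein known to pair with Xrp1, shares its promoter with APP-BP1 and carried 2 peaks of the class, with 198.6 and 106.0 in the pool. Irbp18 was on no list and is named after its values were seen. In all, 14 gene pairs carried 2 peaks of the class, imd/Dp1 among them.

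By chromosome arm, a feature looked at after the values were seen, the X held fewer of these peaks than of the one-strand peaks. It held 61 of the 502 head-to-head peaks (12.2%) and 20.2% of one-strand peaks, a difference of −8.03 points (−11.8 to −4.01). In the upper part of the final list the difference was −14.4 points. In replicate 2's own strongest regions the X held 12.4% of the head-to-head and 20.7% of the one-strand regions, and in replicate 3's 13.3% of the head-to-head and 18.7% of the one-strand regions. The X holds 410 of the 2720 annotated pairs (15.1%) and 1402 of the 8804 genes with no partner. Against the X share of annotated pairs, the difference of −2.92 points (−5.85 to 0.48) had an interval that included 0. A peak was present at 66 of 410 pairs on the X (16.1%) and at 20.5% of pairs on other arms, a difference of −4.42 points (−8.08 to −0.24). Genes with no partner went the other way, with a peak at 9.34% of those on the X and at 6.98% of those elsewhere, a difference of 2.36 points (0.82 to 4.09). For pairs, replicate 2's own list gave 14.9% on the X and 18.3% elsewhere, and replicate 3's gave 17.3% on the X and 20.6% elsewhere. For genes with no partner, replicate 2's list gave 8.92% on the X and 6.47% elsewhere, and replicate 3's gave 9.49% on the X and 7.46% elsewhere. The other arms held 103 (2L), 96 (2R), 102 (3L) and 140 (3R) of the peaks. Arm 4 held 0 of 502, which allows a share of up to 0.598% counted as 3 peaks of 502, or 0.759% by the upper Wilson limit, and it carries 11 of the annotated pairs.

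The limit of 500 bp cuts through a continuous range of distances. Inside it, 24 peaks had the farther TSS 450 to 500 bp away, the farthest at 499 bp, with a median signal value of 88.2. Outside it, 20 peaks had the farther TSS 501 to 550 bp away, the nearest at 508 bp, with a median of 93.0. A limit of 1000 bp would add 157 final peaks to the class, while at 333 of the 502 peaks the farther TSS was within 250 bp.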

How the data were processed

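The ChIP-seq peak lists cover 2 biological replicates of 1 group. Per the deposited file lists, each replicate has a list of peaks and background regions, both were pooled into a further list, and the final list was cut by the irreproducible discovery rate. The sources used here name no aligner, peak caller or rate threshold. Per region, the authors' signal value is a peak strength of unstated scaling, used only to rank and describe regions within a list. The deposited −log10 q-value per region was used as a threshold of 0.01. Depth in reads is unknown. Lists in dm3 were not used.

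From the dm6 lists, summits were assigned to TSSs of protein-coding genes of Ensembl release 115 on 6 chromosome arms, and every region ended within the reference arm lengths. Regions overlapped when they shared 1 bp. Where several replicate regions overlapped a peak, the strongest was taken. Words were read from the RefSeq genome of Release 6. A p53 site allowed a spacer of 0 or 1 bp. Gene lists take genes by symbol. Shares carry 95% Wilson intervals and differences 95% Newcombe intervals, and a difference passes where its interval leaves out 0. No p-value was computed. Named genes are those nearest to the 15 strongest peaks of the class, up to 3 per list with the strongest peak, genes at p53 sites with at most 2 mismatches, and those of the printed intervals, which were taken from outside arm 2R. Skp2/CG1103, Gcn5, Nelf-E, Dref/RpL13 and Irbp18/APP-BP1 were named after their values were seen. The members and lists were chosen with earlier results of these data known. Code (Python 3.11.15, numpy 2.4.6, pandas 2.3.3, matplotlib 3.10.9) was tested on simulated data. Alternatives changed the distance limit, the TSS set, the orientation, the peaks, the comparison regions and the word window, and took each replicate's own 2290 strongest regions.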

Additional observations from a re-analysis of the deposited data

How the results depend on the processing

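The share of head-to-head summits, the share of pairs with a peak, the ribosomal protein genes and the X share kept their direction and passed under every alternative run. Taking 1 replicate's own list at a time, the difference in head-to-head share was 16.4 to 18.0 points, that in pairs with a peak 10.9 to 12.3, that of ribosomal protein genes against other partnered genes 31.9 to 34.8, the X share −8.30 to −5.43, summits between TSSs 16.4 to 19.0, and the median spacing 256.5 to 266 bp. In these lists 2 to 3 words passed, but no word passed in both. Replicate 2's list passed M1BP (−3.35 points) and the GAGA factor word (−5.36). Replicate 3's list passed DREF (4.67 points), motif 7 (5.17) and Myc/Max (2.03). The ribosomal difference spanned 16.6 points at 250 bp and 52.7 points at 1000 bp. The difference in summits between TSSs was 8.57 points at 250 bp, 29.5 at 1000 bp and 11.8 with the most upstream TSS per gene, and passed in each. It no longer passed against the strongest comparison regions (1.56 points). Median spacing was 206 bp at a 250 bp limit, 300 bp at 1000 bp and 244 bp with the most upstream TSS per gene. The difference from one-strand peaks in the upper part by signal was 6.87 points and passed at 250 bp, −1.37 at 1000 bp and −0.258 with TSSs pointing apart only.

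The number of words that passed, 2 of 12, and the words themselves changed with the setting. It was 1 at 250 bp (E-box) and 5 at 1000 bp (DREF, motif 7, TATA box and BEAF-32 counted in both ways). With TSSs pointing apart only it was 1 (motif 7), and in the upper part of the list 1 (GAGA factor). Against the strongest comparison regions it was 1 (E-box), and against one-strand peaks 7. Within 50 bp of the summit it was 1, the full p53 site, at −1.64 points (−2.91 to −0.09). The DREF word, which did not pass in the main setting, passed at 1000 bp (6.09 points) and within 200 bp of the summit (5.53). It also passed with all pooled regions of q at most 0.01 taken as peaks (5.36). Some words changed sign, in points. At 250 bp these were DREF (−0.715), Myc/Max (−0.389), BEAF-32 (−2.41) and BEAF-32 outside DREF (−1.10). At 1000 bp they were M1BP (0.915), TATA box (4.89), the p53 decamer (0.0648) and its control (−0.637). Against the strongest comparison regions they were DREF (−3.20), Myc/Max (−0.415), BEAF-32 (−5.50) and BEAF-32 outside DREF (−4.36). Against one-strand peaks they were M1BP (2.46), E-box (2.05) and TATA box (5.28). Within 50 bp they were Myc/Max (−0.203), TATA box (1.64), BEAF-32 (−0.270), BEAF-32 outside DREF (−2.83) and the p53 decamer (0.267). Within 200 bp they were E-box (2.88), BEAF-32 outside DREF (−2.59), the p53 decamer (1.33) and its control (−0.167). In the upper part of the list they were BEAF-32 (−0.0867) and BEAF-32 outside DREF (−1.46), and with TSSs pointing apart only BEAF-32 outside DREF (−0.150). The full p53 site was at −0.954 points in replicate 3's list alone and 0.321 in replicate 2's. The causes were not tested. No paired analysis was possible because there is 1 group. The reads behind a peak are unknown, most comparison regions were not called at a q of 0.01, and the control library was not analysed here.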
